A study of Mus musculus with 18 samples.

Results

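The genes described here are 32 genes of glucose uptake, glycolysis, lactate handling and their close regulators, chosen by name from the 33006 genes of a single-cell count matrix of mouse splenic CD4+ T cells. UMIs (unique molecular identifiers, each standing for 1 captured transcript) were found for 17739 of the 33006 genes and for all 32 of these. The study compared wild-type (WT) mice with ∆Foxp3 mice, which carry a null allele of Foxp3, the transcription factor of regulatory T cells (Treg). The deposited table holds 26652 cells in 18 samples and 8 groups, with the authors' assignment of each cell to resting conventional T cells (Tconv), activated Tconv or Treg, and to 16 clusters. In ∆Foxp3 samples the Treg class holds cells of that profile made without functional Foxp3.

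All animals were male, and all cells were sorted from spleen as TCRβ+ CD4+ cells. With the 10x Genomics 3′ V2 kit, 2 samples of ∆Foxp3 mice (B6 Foxp3DeltaEGFPiCre x ROSA-YFP) and 2 of WT mice (B6 Foxp3-IRES-GFP) were taken at 3 weeks of age, replicates A and B of each. The remaining 14 samples were made with the V3 kit. They comprise 2 of ∆Foxp3 mice of the same strain at 3 weeks, 2 of WT mice (B6 Foxp3-IRES-GFP x CD45.1) at 9 weeks, and 2 each of Treg and Tconv sorted from that WT strain at 9 weeks. The other 6 came from 3 mixed bone marrow chimeras. CD45.2 recipients were irradiated with 1000 rad at 7 weeks and given CD3-depleted marrow, 50% from WT (Foxp3-IRES-GFP x CD45.1) and 50% from ∆Foxp3 (Foxp3DeltaEGFPiCre) donors; the latter also bore ROSA-YFP and CD45.1/2. The chimera labels give an age of 16 weeks, which does not match 7 plus 10 weeks. WT and ∆Foxp3 cells were sorted from each chimera 10 weeks after the transplant, so that both had developed in 1 host with WT Treg present. In the V3 mice genotype and age cannot be told apart. The paired replicates of each V3 mouse and sorted group bear 1 hashtag and were loaded in 2 10x channels, so they may come from 1 animal. The labels do not say which samples are separate animals outside the chimeras, and p-values then measure the spread between samples, which may be technical.

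Samples held 148 to 5271 cells and 955097 to 14887898 UMIs, with a median of 2774 to 3143 UMIs per cell in V2 and 4731 to 8857 in V3 samples. Foxp3 itself was at 3.26 to 6.33 CPM (a gene's UMIs relative to all UMIs of the sample) in the ∆Foxp3 and 13.4 to 17.8 in the WT samples of the V2 kit, at 6.67 to 7.42 against 8.25 to 24.6 in the V3 mice, and at 0.757 to 1.50 against 21.9 to 30.7 in the chimeras. It reached 109 to 134 in the sorted Treg and 1.55 to 3.14 in the sorted Tconv. Which part of the transcript the allele removes was not given in the sources used here. The T cell markers were present in every sample: their summed level was 5134 to 5200.0 CPM in V3 ∆Foxp3 and 5222 to 5564 in V3 WT mice.

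Glycolysis splits glucose into pyruvate in the cytosol and yields ATP without oxygen. Resting T cells take up little glucose and burn pyruvate in mitochondria, whereas activated T cells raise glucose transporters and glycolytic enzymes and turn much of the pyruvate into lactate, even with oxygen at hand. Pyruvate enters mitochondria through the pyruvate dehydrogenase complex, which pyruvate dehydrogenase kinases switch off. The oxygen-regulated transcription factor HIF-1α drives many of these genes by binding hypoxia response elements, whose core reads ACGTG or GCGTG. Myc is another driver of the pathway in activated T cells.

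The DNA before the start sites of 5 genes on which the results turn is shown first, because they differ in how often they hold that core. Each sequence is the 250 bases upstream of an annotated RefSeq start site (GRCm38.p6, the mm10 build of the counts), 5′ to 3′ on the gene's strand, and the capitals mark ACGTG or GCGTG and their complements CACGT and CACGC. The palindrome CACGTG holds a match on each strand and counts as 2. Gapdh (glyceraldehyde-3-phosphate dehydrogenase, the enzyme of the first oxidation step) lies on the minus strand of chromosome 6, and its window, chr6:125165774-125166023, holds 2 matches. Ldha (the muscle-type lactate dehydrogenase subunit) has 5 in chr7:46845554-46845803 on the plus strand, and Ldhb (the heart-type subunit) 1 in chr6:142507958-142508207 on the minus strand. Pdk1 (pyruvate dehydrogenase kinase 1) has 1 in chr2:71872974-71873223 and Hif1a (HIF-1α) 3 in chr12:73907617-73907866, both on the plus strand. None of the 5 windows holds a GENCODE exon. Those of Gapdh, Ldha and Hif1a lie inside the annotated gene, upstream of the start site used, and that of Hif1a also overlaps Gm15283. The end of the Pdk1 window reaches into the gene as RefSeq places it.
Gapdh: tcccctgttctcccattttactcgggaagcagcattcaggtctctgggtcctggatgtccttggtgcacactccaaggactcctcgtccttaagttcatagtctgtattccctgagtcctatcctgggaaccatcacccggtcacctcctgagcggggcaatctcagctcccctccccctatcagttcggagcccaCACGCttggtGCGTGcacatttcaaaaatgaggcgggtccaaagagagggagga
Ldha: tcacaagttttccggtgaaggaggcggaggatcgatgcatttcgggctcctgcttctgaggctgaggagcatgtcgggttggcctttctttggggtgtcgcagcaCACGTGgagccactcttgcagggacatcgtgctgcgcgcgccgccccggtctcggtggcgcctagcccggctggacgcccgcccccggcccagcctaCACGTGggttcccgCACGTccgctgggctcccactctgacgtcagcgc
Ldhb: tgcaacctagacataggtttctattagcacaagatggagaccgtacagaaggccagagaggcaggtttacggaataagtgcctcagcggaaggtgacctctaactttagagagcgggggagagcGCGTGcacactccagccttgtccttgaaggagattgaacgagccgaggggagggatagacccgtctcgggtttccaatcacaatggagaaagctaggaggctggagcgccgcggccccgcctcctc
Pdk1: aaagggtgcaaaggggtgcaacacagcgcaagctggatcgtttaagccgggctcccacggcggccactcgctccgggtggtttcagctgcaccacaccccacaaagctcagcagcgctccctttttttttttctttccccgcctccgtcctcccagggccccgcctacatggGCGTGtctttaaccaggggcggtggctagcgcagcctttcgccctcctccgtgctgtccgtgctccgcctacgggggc
Hif1a: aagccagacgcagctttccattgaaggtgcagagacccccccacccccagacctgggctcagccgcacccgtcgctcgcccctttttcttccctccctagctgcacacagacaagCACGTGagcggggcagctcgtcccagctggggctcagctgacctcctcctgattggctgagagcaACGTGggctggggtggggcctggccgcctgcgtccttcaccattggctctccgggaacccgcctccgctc
Windows were found for 31 of the 32 genes (44 windows, since some genes have several start sites) and for 27025 genes in the whole table (32851 windows). Taking the first listed window of each gene, 24 of the 31 (77.4%) held at least 1 match, against 10431 of the 27025 (38.6%). These sets are unlike: all 31 genes have UMIs here, whereas in the whole table only 17739 of 33006 genes do. The share among genes with UMIs is not given here, so no enrichment can be read from the 2 values. A match is a description of these letters and does not show that a factor binds there.

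Differences between groups were tested on UMIs summed per sample with edgeR's quasi-likelihood test, scaled by TMM (a trimmed mean that centres the bulk of genes at no change) and adjusted over all genes. In ∆Foxp3 against WT mice of 3 weeks (V2), 11 of the 29 genes tested passed an adjusted p of 0.05, 10 higher and 1 lower, where 24.0% of all genes passed (14.4% higher and 9.61% lower). In ∆Foxp3 mice of 3 weeks against WT mice of 9 weeks (V3), 20 of 29 passed, 17 higher and 3 lower, against 43.0% of all genes (22.1% higher and 20.9% lower). In the chimeras, where ∆Foxp3 and WT cells shared a host, 0 of 29 passed, against 0.458% of all genes (0.211% higher and 0.247% lower). There, 5 of the 29 had an unadjusted p under 0.05, and DESeq2 called 0. The share of all genes with an unadjusted p under 0.05 is not given here, nor for the chimera classes below. Those counts can therefore not be set against a background. The median log2 fold change of the 29 genes was 0.07 in V2, 0.46 in V3 and -0.07 in the chimeras, and that of all genes tested was -0.01, -0.00 and -0.00.

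All fold changes are on this TMM scale. On plain CPM the median of all genes tested would lie at a log2 ratio of 0.05 in V2, 0.22 in V3 and -0.13 in the chimeras, and CPM values printed beside a fold change carry that shift. No gene of the 32 that passed over all cells changed sign between the scales. In sums over all cells, more cells of an active kind and more transcript per cell cannot be told apart.

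**Figure D1:**
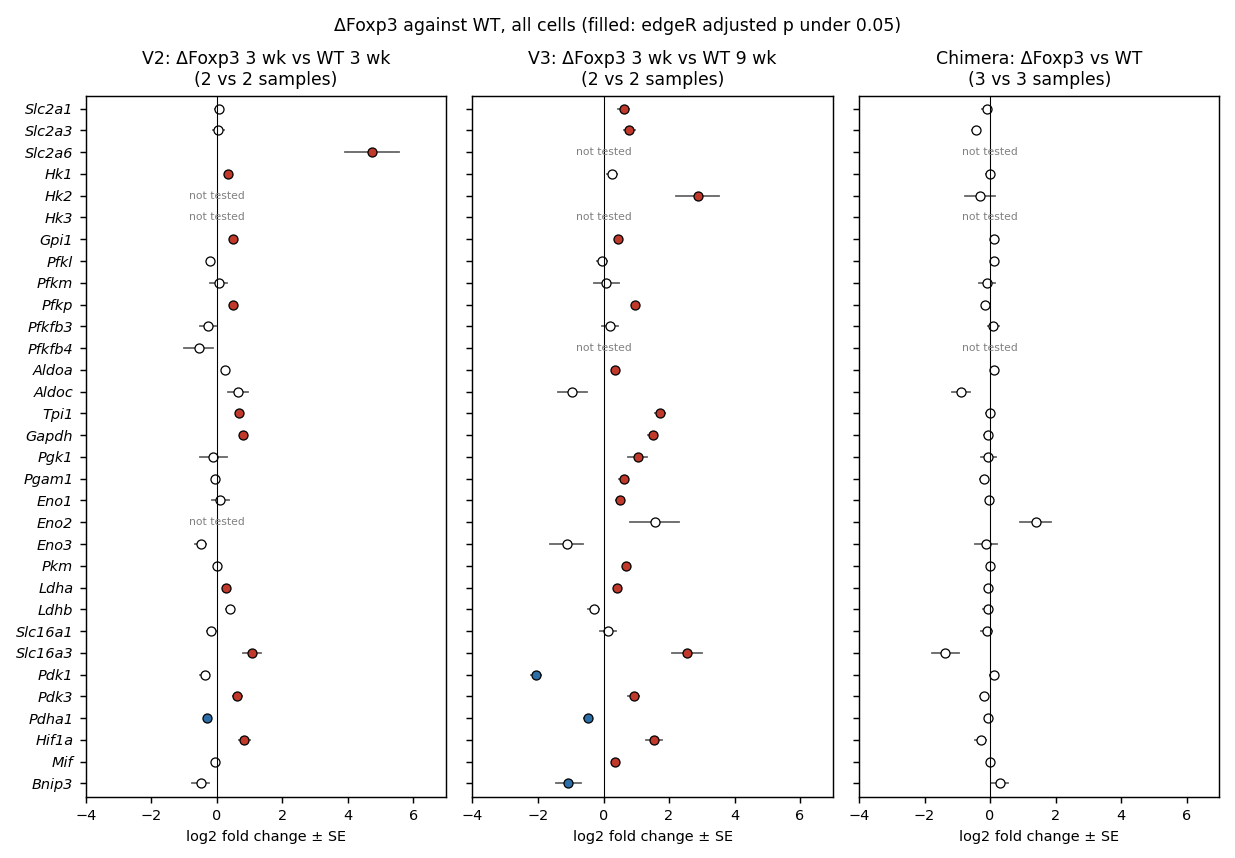
Log2 fold change ± SE (horizontal axis) of each of the 32 genes (rows, ordered by role) between ∆Foxp3 and WT over all cells, in V2 mice, V3 mice and chimeras. Filled points passed an adjusted p of 0.05 (red higher, blue lower), and 11 genes are filled in V2, 20 in V3 and 0 in the chimeras.

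At the entry of glucose, the ubiquitous transporter Slc2a1 (GLUT1) and the high-affinity Slc2a3 (GLUT3) rose in V3 mice. Slc2a3 was at 26.97 and 27.02 CPM in the V3 ∆Foxp3 samples and at 12.6 and 14.6 in WT (log2 fold change 0.79 ± 0.16, edgeR adjusted p = 0.00122). Slc2a1 was at 28.4 and 28.8 against 16.95 and 14.6 CPM (log2 0.61 ± 0.18, edgeR adjusted p = 0.0132). Both ∆Foxp3 samples lay above both WT samples for each. In V2 mice neither passed: Slc2a1 was at 16.9 and 15.7 against 15.5 and 14.7 CPM and Slc2a3 at 11.4 and 11.5 against 11.96 and 9.40, and Slc2a3 overlapped between the groups. In the chimeras the ∆Foxp3 cells held Slc2a3 at 10.2, 10.7 and 12.2 CPM in mice 1 to 3 and the WT cells at 16.6, 15.3 and 17.1. Those groups did not overlap, with ∆Foxp3 below, yet the difference did not pass (log2 -0.42 ± 0.12, edgeR adjusted p = 0.175, the lowest of the 29).

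Slc2a6 (GLUT6), a rare transporter of leukocytes, gave 20 UMIs in the V2 ∆Foxp3 samples and 1 in V2 WT, a CPM ratio of 35.7 with a 95% interval of 5.72 to 1482 that covers counting error only. It passed the test (log2 4.74, edgeR adjusted p = 0.0113). In V3 mice it gave 27 UMIs against 0 and was too rare to be tested. Taking 3 UMIs as the most that the WT group could hold, it was at least 3.66-fold higher in ∆Foxp3.

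Hexokinases trap glucose inside the cell as glucose 6-phosphate. Hk1, the constitutive form, was at 48.7 and 47.3 CPM in V2 ∆Foxp3 and 39.02 and 34.1 in V2 WT (log2 0.34 ± 0.10, edgeR adjusted p = 0.0467). In V3 it did not pass (47.7 and 54.8 against 30.7 and 44.96 CPM). Hk2, the inducible form, was too rare to be tested in V2. Those samples held 0.575 and 0.469 CPM in ∆Foxp3 and 0.605 and 0.439 in WT. The V3 samples held 3.20 and 4.66 against 0.458 and 0.416. The V3 difference rests on 67 against 3 UMIs, a CPM ratio of 9.09 (95% counting interval 2.98 to 45.2), and passed (edgeR adjusted p = 0.00256). Hk3 was too rare to be tested in any comparison.

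Among the enzymes that prepare glucose for cleavage, Gpi1 (glucose 6-phosphate isomerase) rose in both kits. It was at 368 and 368 CPM in V2 ∆Foxp3 and 255 and 246 in V2 WT (log2 0.50 ± 0.07, edgeR adjusted p = 0.00612), and at 355 and 379.8 against 216 and 246 in V3 (log2 0.46). Of the phosphofructokinases, which set the pace of the pathway, the platelet-type Pfkp rose in both. Its V2 levels were 89.7 and 76.4 against 60.2 and 54.4 CPM (log2 0.49 ± 0.11, edgeR adjusted p = 0.0216) and its V3 levels 102 and 119.7 against 49.7 and 47.5 (log2 0.96 ± 0.10, edgeR adjusted p = 3.98e-06). The liver-type Pfkl (22.9 and 27.5 against 24.3 and 19.6 CPM in V3, 25.4 and 28.6 against 30.3 and 28.7 in V2) and the muscle-type Pfkm (2.64 and 3.18 against 2.52 and 2.08 in V3, 4.89 and 4.69 against 3.76 and 5.27 in V2) passed in neither. Aldoa, the aldolase of most tissues, rose in V3 (log2 0.35) and did not pass in V2 (log2 0.24, edgeR adjusted p = 0.0539). Differences between the kits were not tested for any gene. Aldoc, the brain-type aldolase, and Pfkfb3, which makes the activator of phosphofructokinase, passed in neither. Pfkfb4, a relative of Pfkfb3, did not pass in V2 and was too rare to be tested in V3.

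Tpi1 (triosephosphate isomerase) and Gapdh, which act next to each other in the middle of the pathway, had the lowest p among the glycolytic enzymes in both kits. Gapdh was at 935 and 1094 CPM in V2 ∆Foxp3 and at 570.5 and 555 in V2 WT (log2 0.79 ± 0.09, edgeR adjusted p = 0.00320). In V3 it was at 1809 and 2201 against 529 and 697 CPM (log2 1.50 ± 0.14, edgeR adjusted p = 9.79e-07). The groups were well apart in both kits, and Gapdh made up 34.3% and 36.1% of the UMIs of the 32 genes in V3 ∆Foxp3 against 19.4% and 22.5% in V3 WT samples. Tpi1 was at 73.1 and 75.9 against 43.8 and 45.6 CPM in V2 (log2 0.68 ± 0.08, edgeR adjusted p = 0.00341) and at 122 and 151 against 30.9 and 41.2 in V3 (log2 1.74 ± 0.15, edgeR adjusted p = 6.24e-07). In the chimeras neither passed. Gapdh was at 590.0, 748 and 599.7 CPM in ∆Foxp3 and 784, 693 and 753 in WT cells of mice 1 to 3. The log2 difference ± 2 SE ran from -0.29 to 0.15 for Gapdh and from -0.24 to 0.24 for Tpi1.

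The lower enzymes rose in V3 and did not pass in V2. In V3 Pgk1 (phosphoglycerate kinase, the first ATP-forming step) had a log2 fold change of 1.04, Pgam1 (phosphoglycerate mutase) of 0.61 and Eno1 (the ubiquitous enolase) of 0.51. Pkm (pyruvate kinase, the second ATP-forming step) was at 518 and 606 against 266 and 337 CPM in V3 (log2 0.69 ± 0.11, edgeR adjusted p = 0.000105) and at 594 and 583 against 561 and 567 in V2, where it did not pass. The neuronal Eno2 did not pass in V3 and was too rare to be tested in V2. The muscle-type Eno3 passed in neither kit, with 3.48 and 2.22 against 4.81 and 5.83 CPM in V3; with a block for the replicate number, which in the V3 mice is also the 10x channel, it passed there (edgeR adjusted p = 0.0193). Counts of Aldoa, Gapdh, Pgk1, Pgam1, Ldha and Mif are uncertain to the extent that reads of their annotated processed pseudogenes were counted with them.

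**Figure D2:**
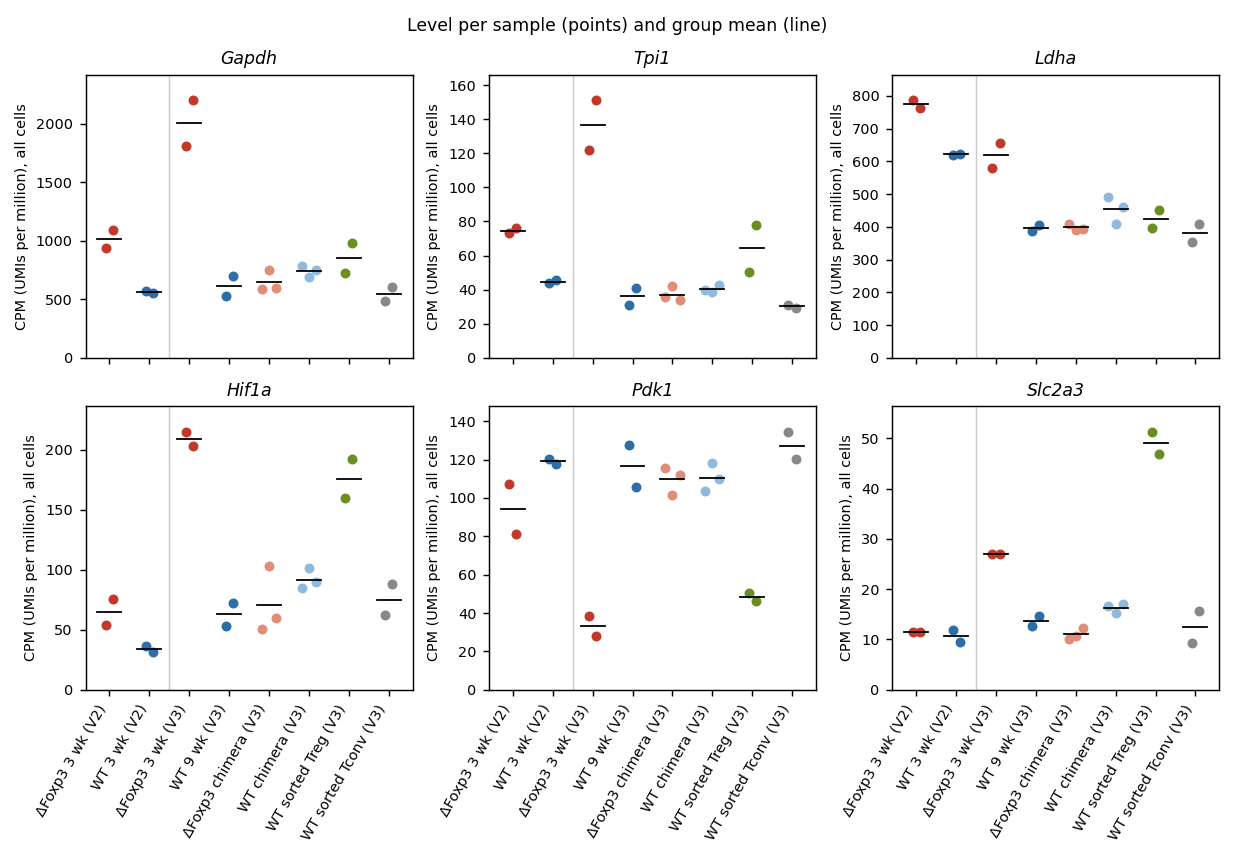
CPM over all cells (vertical axes, from 0) of Gapdh, Tpi1, Ldha, Hif1a, Pdk1 and Slc2a3 in each of the 18 samples (points) with group means (lines). The V3 ∆Foxp3 samples stand apart from V3 WT samples upwards in Gapdh, Tpi1, Ldha, Hif1a and Slc2a3 and downwards in Pdk1. The chimera groups lie closer together, with ∆Foxp3 below WT without overlap in Slc2a3. Sorted Treg are high in Slc2a3 and low in Pdk1.

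At the fate of pyruvate, Ldha, whose subunit favours lactate formation, rose in both kits. It was at 787 and 764 CPM in V2 ∆Foxp3 and 619 and 624 in V2 WT (log2 0.26 ± 0.07, edgeR adjusted p = 0.0447), and at 581 and 656 against 386 and 405 in V3 (log2 0.42 ± 0.09, edgeR adjusted p = 0.00115). Ldhb, whose subunit favours the return from lactate to pyruvate, was at 72.2 and 58.1 against 48.2 and 48.7 CPM in V2 and 30.6 and 29.03 against 32.5 and 29.6 in V3 and passed in neither. The lactate exporter Slc16a3 (MCT4) rose from 2.69 and 2.81 CPM to 5.08 and 7.50 in V2 (log2 1.07, edgeR adjusted p = 0.0336) and from 2.06 and 2.08 to 11.8 and 16.6 in V3 (log2 2.55, edgeR adjusted p = 0.000343). Slc16a1 (MCT1) passed in neither.

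Pdk1 moved against the enzymes. It fell in V3 from 128 and 106 CPM in WT to 38.6 and 27.9 in ∆Foxp3 samples (log2 -2.06 ± 0.15, edgeR adjusted p = 1.07e-07), with the lowest p of the 29 genes. In V2 it was at 107 and 81.3 CPM in ∆Foxp3 and 121 and 118 in WT, both ∆Foxp3 samples below both WT samples, without passing (log2 -0.38, edgeR adjusted p = 0.0928). In the chimeras it was at 116, 102 and 112 against 104, 118 and 110.0 CPM, and the log2 difference ± 2 SE ran from -0.10 to 0.34. The related kinase Pdk3 went the other way and rose in both kits (log2 0.63 in V2 and 0.92 in V3), and Pdha1, the catalytic subunit that these kinases phosphorylate, fell in both (log2 -0.32 and -0.47).

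Of the HIF-linked genes, Hif1a itself was at 53.8 and 75.2 CPM in V2 ∆Foxp3 and 36.3 and 31.7 in V2 WT (log2 0.84 ± 0.16, edgeR adjusted p = 0.0137). In V3 it was at 215 and 203 against 53.4 and 72.4 CPM (log2 1.54 ± 0.24, edgeR adjusted p = 0.000108). The groups did not overlap in either kit. In the chimeras they did, with 50.2, 103 and 59.4 CPM in ∆Foxp3 and 84.3, 101 and 89.8 in WT cells, mouse 2 being highest in both. Mif, a cytokine gene that HIF-1α induces, rose in V3 by a log2 of 0.34. Bnip3, a gene of mitochondrial clearance, fell in V3 by 1.08 on the log2 scale (edgeR adjusted p = 0.0335), a call lost with that block (edgeR adjusted p = 0.0512).

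In the chimeras the 5 genes with an unadjusted p under 0.05 were Slc2a3, Aldoa, Aldoc, Eno2 and Slc16a3, and none passed over all genes. Slc16a3 was at 0.589, 2.001 and 0.614 CPM in ∆Foxp3 and 1.70, 3.37 and 2.39 in WT cells of mice 1 to 3 (log2 -1.37 ± 0.42, edgeR adjusted p = 0.192), the reverse of its direction in the mice. Without ∆Foxp3 cells of mouse 2, Slc16a3 (log2 -1.95) and Hif1a (log2 -0.61) passed, both lower in ∆Foxp3, and the same 2 genes passed when rare genes were kept in the test. For Pfkp the ± 2 SE interval in the chimeras ran from -0.32 to 0.00, for Pkm from -0.16 to 0.17 and for Hif1a from -0.65 to 0.07, all below the V3 values of these genes. All 20 V3 differences had the same direction within each of the 2 10x channels. The 20 genes were called on these same samples, so this is a description and no test. In V2 no call held in every alternative: without WT replicate A 0 genes passed and without WT replicate B 2, and DESeq2 called 6. In V3, 10 of the 20 calls held in every alternative: Slc2a3, Gpi1, Pfkp, Tpi1, Gapdh, Pkm, Slc16a3, Pdk1, Pdk3 and Hif1a.

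Whether the genotype difference was larger in V3 mice than in the chimeras was tested as a difference of differences, in which age, donor strain and host also differ between the 2 settings. It passed for 19 of 29 genes, 16 with a higher and 3 with a lower value in the mice, against 36.8% of all genes (18.7% higher and 18.1% lower). It was 1.57 ± 0.18 for Gapdh, 1.74 ± 0.20 for Tpi1, 1.83 ± 0.30 for Hif1a and -2.18 ± 0.19 for Pdk1 on the log2 scale (edgeR adjusted p = 9.31e-06, 9.53e-06, 0.000238 and 8.23e-07). Without WT replicate 1 of the V3 mice, 12 passed.

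The 32 genes together made up 0.454% and 0.490% of all UMIs in the V2 ∆Foxp3 samples and 0.373% and 0.378% in V2 WT, and 0.527% and 0.610% against 0.272% and 0.310% in V3 mice. In the chimeras their share was 0.287%, 0.323% and 0.289% in ∆Foxp3 and 0.346%, 0.315% and 0.338% in WT cells. The ∆Foxp3 samples were the higher ones in both kits of mice, and the chimera groups overlapped. Sorted WT Treg held 0.320% and 0.386% and sorted WT Tconv 0.266% and 0.297%.

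Other cell contents moved with these groups, and their part in the results was not tested. Activated Tconv made up 21.8% and 38.2% of the V2 ∆Foxp3 cells against 11.2% and 12.5% of V2 WT, and 45.95% and 47.4% against 14.6% and 19.9% in V3. Dividing clusters held 2.07% and 5.76% against 0.550% and 1.71% and 9.49% and 13.03% against 1.97% and 1.99%. Without the dividing clusters 13 of the glycolysis genes passed in V2 and 19 in V3, and the share of all genes passing is not given here for this setting. Of 20 proliferation genes, 15 rose in V2 and 18 in V3, where 14.4% and 22.1% of all genes rose. Mitochondrially encoded transcripts fell for 7 of 12 in V2 and 12 of 12 in V3, where 9.61% and 20.9% of all genes fell. Their sum went from 69408 to 69634 CPM in V3 WT to 46875 to 47450.4 in V3 ∆Foxp3. Reads in cells were a fraction of 0.597 and 0.534 in V2 ∆Foxp3 against 0.791 and 0.795 in V2 WT. In chimera mice 1 to 3, Treg made up 2.39%, 4.84% and 2.27% of ∆Foxp3 cells and 9.77%, 8.76% and 8.82% of WT cells.

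Markers of other cell types also moved. Myeloid markers summed to 333 to 339 CPM in V3 ∆Foxp3 and 261 to 286 in V3 WT (4 of 9 rose and 1 fell) and to 361 to 385 against 274 to 276 in V2 (2 of 7 rose), while Cd14 was at 0 in 14 of 18 samples. Cst3 (77.5 to 187 CPM in a sample) and Ctss (119 to 265) made up most of that sum. The other myeloid markers, of which Lyz2 was the highest, stayed at or below 8.05 CPM in every sample. Hbb-bs of the erythroid list ran from 0.852 to 334 CPM over the samples. CD8 and NK markers summed to 188 to 273 against 23.8 to 35.8 CPM in V3 and 362 to 386 against 38.6 to 51.1 in V2, with Ncr1 at 0 in 13 of 18. Gzma (granzyme A) made up most of that sum in ∆Foxp3 mice, with up to 325 CPM in a sample, and rose with Cd8a in both kits, while Cd8b1 and Prf1 did not pass. Of this list 2 of 6 rose and 1, Klrb1c, fell in V2, and 2 of 5 rose in V3. B cell markers summed to 138 to 153 against 229.6 to 264 CPM in V3 and 201 to 241 against 212 to 239.7 in V2. Ighm, with up to 310 CPM in a sample, made up most of that sum in WT mice and fell in both kits, whereas Cd74, Cd79b and H2-Ab1 rose in both. Of the B cell list 5 of 9 rose and 3 fell in V2, and 4 of 9 rose and 2 fell in V3. When cells with UMIs of 4 or more such markers, or in the natural killer T (NKT) cluster, were left out, 9 of the glycolysis genes passed in V2, 19 in V3 and 0 in the chimeras. With a cut at 2 markers, which removed 47.7% to 89.2% of the cells of a sample, 9 passed in V2 and 11 in V3. Shares of all genes passing after these cuts are not given here.

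Sorted WT Treg and Tconv of 9 weeks were compared as whole sorts, which differ in make-up as well as in lineage. In Treg replicates 1 and 2, activated cells were 21.8% and 30.3%, tissue-like cells 10.3% and 16.9% and furtive cells 25.1% and 14.7%. Resting cells made up 85.1% and 73.0% of the Tconv samples. In these sums lineage and make-up cannot be told apart. Of 29 genes 6 passed, 4 higher and 2 lower in Treg, against 12.2% of all genes (6.16% higher and 6.01% lower). Slc2a3 was at 51.2 and 46.9 CPM in Treg and 9.30 and 15.7 in Tconv (log2 1.82 ± 0.22, edgeR adjusted p = 7.23e-05). Pdk1 was at 50.6 and 46.2 against 134 and 120.4 CPM (log2 -1.67 ± 0.20, edgeR adjusted p = 6.55e-05). Both differences held in every alternative, and the groups lay far apart. Hif1a (159.7 and 192 against 62.01 and 87.9 CPM, log2 1.02), Tpi1 (50.6 and 78.1 against 31.004 and 29.3 CPM, log2 0.80) and Ldhb (69.3 and 56.4 against 32.6 and 19.9 CPM, log2 0.91) were higher in Treg. Aldoa was lower on the TMM scale (log2 -0.36, edgeR adjusted p = 0.00928), although its CPM overlapped at 225 and 259 against 256 and 264. Without either Tconv sample 3 of the 6 passed, and 3 passed when cells with 2 or more markers of other types were left out. With a block for the replicate number, Gapdh (log2 0.40) and Eno3 (1.64) also passed as higher and Eno1 (-0.33) as lower in Treg. On plain CPM the median gene tested had a log2 ratio of 0.26.

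Within resting Tconv, Gapdh and Hif1a rose in both kits, and Pdk1 fell in V3. In V3, 19 of 28 genes passed, 17 higher and 2 lower, against 42.0% of all genes (22.4% higher and 19.6% lower). In V2, 6 of 28 passed, 5 higher and 1 lower, against 19.6% (12% higher and 7.63% lower). Gapdh in resting Tconv was at 1673 and 2120.5 CPM in V3 ∆Foxp3 and 458 and 601 in V3 WT (log2 1.57 ± 0.11, edgeR adjusted p = 5.35e-10), and at 734 and 691 against 539 and 519 in V2 (log2 0.42 ± 0.07, edgeR adjusted p = 0.00429). Both were without overlap.

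Hif1a in resting Tconv was at 193 and 203 CPM in V3 ∆Foxp3 against 43.5 and 42.7 in V3 WT (log2 1.91 ± 0.10, edgeR adjusted p = 1.22e-11). In V2 it was at 40.5 and 38.6 against 32.6 and 27.4 (log2 0.39). Pdk1 fell to 48.01 and 33.9 CPM from 146 and 129 in V3 (log2 -2.07 ± 0.12, edgeR adjusted p = 7.40e-11), and in V2 it was at 137 and 128 CPM in ∆Foxp3 and 134 and 129 in WT, which overlapped. The WT comparator is 3 weeks old in V2 and 9 weeks old in V3. Slc2a3 was at 23.6 and 28.2 against 7.39 and 5.69 CPM in resting Tconv of V3 (log2 1.65 ± 0.22, edgeR adjusted p = 7.18e-06) and at 7.38 and 7.89 against 8.61 and 6.78 in V2. Ldhb rose in V2 resting Tconv (72.2 and 68.4 against 48.8 and 48.98 CPM, log2 0.52 ± 0.08, edgeR adjusted p = 0.00459) and not in V3 (34.4 and 30.2 against 34.4 and 31.3).

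The WT and ∆Foxp3 samples of the V3 mice with the same replicate number shared a 10x channel, which those of the chimeras did not. In the largest resting cluster of replicate 1, Gapdh was at 1689 CPM in ∆Foxp3 and 457 in WT cells of the same channel. In the chimeras 0 of 28 genes passed in resting Tconv, against 1.19% of all genes (0.812% higher and 0.376% lower; 1 of the 28 with an unadjusted p under 0.05), with Pdk1 at 124, 123 and 121 CPM in ∆Foxp3 and 128, 141 and 129 in WT cells. Without either WT sample, 0 of 28 passed in V2 resting Tconv, so the V2 calls there rest on both; 10 passed without ∆Foxp3 replicate B.

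Within activated Tconv the V2 mice gave 9 of 25 genes, 7 higher and 2 lower, against 15.2% of all genes (9.16% higher and 6% lower). V3 mice gave 4 of 23, all higher, against 10.5% (5.16% higher and 5.30% lower). Gapdh was at 1474 and 1569.5 CPM in V2 ∆Foxp3 and 752 and 766 in V2 WT (log2 1.002 ± 0.09, edgeR adjusted p = 7.62e-05) and at 1914 and 2284 against 849 and 1012 in V3 (log2 1.18 ± 0.16, edgeR adjusted p = 0.000407). The make-up of this class differed between genotypes, and its part in the results was not tested. NKT cells were 9.07% and 6.17% of it in V2 ∆Foxp3 and 33.7% and 23.2% in V2 WT. In V3 the second activated Tconv cluster held 41.5% and 34.5% in ∆Foxp3 against 4.20% and 4.29% in WT, and the Th1 cluster 8.70% and 9.01% against 31.9% and 20%. Tpi1 rose in both kits (log2 0.88 and 1.34), and so did Pkm (log2 0.37 and 0.68). Pdk1 fell in V2 activated cells from 58.7 and 70.3 to 32.02 and 28.8 CPM (log2 -1.07 ± 0.18, edgeR adjusted p = 0.00288). Mif rose in V3 (log2 0.60), and Aldoa, Ldha, Pdk3 and Hif1a rose and Pdha1 fell in V2. The V2 call of Ldha was lost without the NKT cluster and without either WT sample. The share of all genes passing with a block for the replicate number is not given here. With that block 11 genes passed in V3, adding Gpi1, Pfkp, Pgk1, Eno1, Ldha and Hif1a as higher and Pdk1 as lower. Without ∆Foxp3 replicate 2, 2 passed. In V2 5 passed without either WT sample. In the chimeras 0 of 23 passed, against 0.123% of all genes (0.0560% higher and 0.0672% lower; 2 of the 23 with an unadjusted p under 0.05). Without WT cells of mouse 2, Slc2a3 passed there as lower in ∆Foxp3 (log2 -1.16).

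In the Treg class Gapdh rose and the transporter Slc2a3 fell in both kits. In the Treg class 8 of 19 genes passed in V2, 6 higher and 2 lower, against 16.3% of all genes (8.54% higher and 7.79% lower). In V3 8 of 19 passed, 7 higher and 1 lower, against 8.38% (4.17% higher and 4.21% lower). Gapdh was at 1311 and 1496 CPM in V2 ∆Foxp3 and 637 and 585 in V2 WT (log2 1.13 ± 0.11, edgeR adjusted p = 3.36e-07) and at 2017 and 2078 against 724 and 819 in V3 (log2 1.32 ± 0.15, edgeR adjusted p = 2.32e-07). Aldoa, Tpi1, Pkm and Hif1a rose in both kits as well. When 1 sample was left out, Gapdh and Aldoa kept their calls in both kits. In V2, Pkm lost its call without WT replicate A or B and Tpi1 without WT replicate A. In V3, Pkm lost its call without ∆Foxp3 replicate 2 or WT replicate 1, Tpi1 without WT replicate 2 and Hif1a without WT replicate 1. Slc2a3 fell in both: from 40.5 and 34.95 to 6.65 and 8.52 CPM in V2 (log2 -2.39 ± 0.48, edgeR adjusted p = 0.00124) and from 59.5 and 73.9 to 21.03 and 28.95 in V3 (log2 -1.45 ± 0.40, edgeR adjusted p = 0.0172). The V3 call of Slc2a3 was lost without ∆Foxp3 replicate 1 and without either WT sample; the V2 call held in each alternative. In V2 ∆Foxp3 Treg, 3 UMIs stand for 4.99 and 8.52 CPM in replicates A and B, so Slc2a3 there rests on few UMIs. In V3 resting Tconv Slc2a3 had the opposite sign, and the difference between the classes was not tested.

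In chimera Treg, Slc2a3 was at 15.6, 29.99 and 25.3 CPM in ∆Foxp3 and 53.1, 43.8 and 46.96 in WT cells of mice 1 to 3, without overlap, and did not pass (log2 -0.93 ± 0.35, edgeR adjusted p = 0.463); 0 of 19 genes passed there, against 0.388% of all genes (0.175% higher and 0.213% lower; 1 of the 19 with an unadjusted p under 0.05). Eno3 fell in V2 Treg from 64.8 and 61.2 to 6.65 and 2.84 CPM (log2 -3.60 ± 0.47, edgeR adjusted p = 1.19e-05). In V3 mice Eno3 was at 7.01 and 5.11 against 19.8 and 5.69 and in the chimeras at 3.90, 4.28 and 12.7 against 30.3, 14.2 and 16.4 CPM in that class. Eno3 was too rare to be tested in V3 and chimera Treg, and its V2 ∆Foxp3 values rest on few UMIs. The enolase Eno1 rose in V3 Treg (log2 0.79, edgeR adjusted p = 0.0162), a call lost with a block for the replicate number (edgeR adjusted p = 0.0515). Without WT replicate 1 of the V3 mice 5 genes passed in V3 Treg.

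The make-up of the Treg class differed between genotypes: activated Treg clusters held 61.6% of its cells in V2 ∆Foxp3 and 20.2% in V2 WT, and 64.9% against 43.9% in V3. Within the resting Treg cluster alone, Slc2a3 was at 4.99 and 14.4 CPM in V2 ∆Foxp3 and 31.2 and 41.6 in V2 WT, and at 21.99 and 31.9 in V3 ∆Foxp3 and 70.5 in the 1 V3 WT sample with 20 or more such cells. Eno3 in that cluster was at 14.97 and 0 CPM in V2 ∆Foxp3 and 71.02 and 67.8 in V2 WT. Both were also lower in ∆Foxp3 within this 1 cluster, but the V2 ∆Foxp3 samples held only 63 and 22 such cells. Their values rest on few UMIs, and the part played by the make-up of the class was not tested. In the activated Treg cluster Slc2a3 was at 9.06 and 3.97 CPM in V2 ∆Foxp3 and 73.3 and 8.69 in V2 WT, which overlapped. These values rest on 17 UMIs in all.

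**Figure D3:**
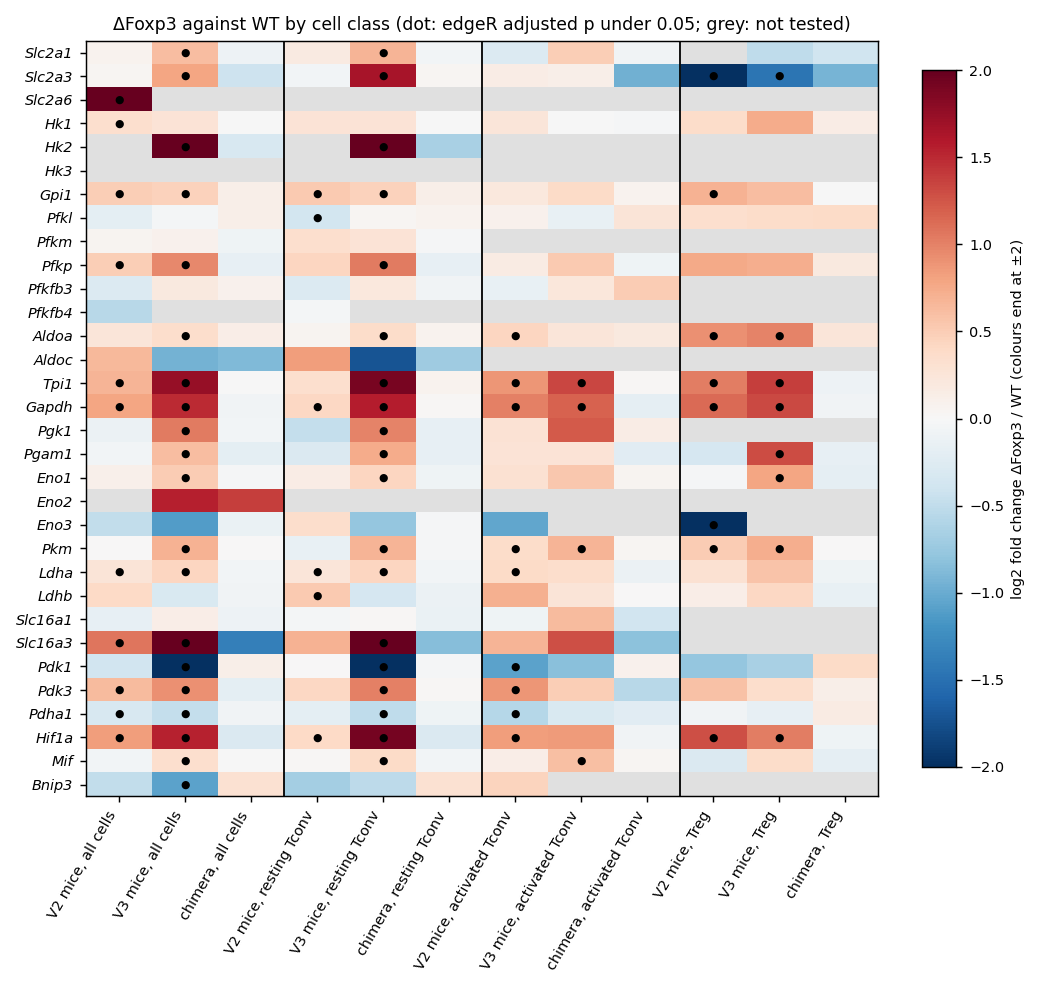
Log2 fold change of ∆Foxp3 against WT (colour, ending at ±2) for the 32 genes (rows) over all cells and within resting Tconv, activated Tconv and Treg of V2 mice, V3 mice and chimeras (columns). Dots mark genes that passed an adjusted p of 0.05 and grey cells were not tested; the chimera columns hold no dot, and Slc2a3 is blue in Treg and red in V3 resting Tconv.

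Across the classes of 1 sample, Gapdh, Tpi1, Hk1 and Pfkp were higher and Pdk1 lower in activated than in resting Tconv. In the 16 samples with both Tconv classes, the ratio of activated to resting CPM was above 1 in 16 of 16 for Gapdh (1.08 to 2.27), Tpi1 (1.01 to 2.84), Hk1 (1.09 to 2.30) and Pfkp (1.17 to 2.72). It was below 1 in 16 of 16 for Pdk1 (0.225 to 0.673, median 0.423). Hif1a was above in 15 of 16, with a median ratio of 2.55, whereas Mif was above in 3 and Ldhb in 2. The authors' classes were drawn from these same cells, so the ratios describe them and are no test. In V3 ∆Foxp3 mice Gapdh was at 1673 and 2120.5 CPM in resting and 1914 and 2284 in activated Tconv of the same samples, so that resting cells there lay above activated WT cells of V3 (849 and 1012).

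Clusters were ranked within a group by the mean over its samples, among clusters with 20 or more cells in each sample of that group. The share of UMIs from the 32 genes was highest in dividing activated Tconv in ∆Foxp3 mice of both kits (0.626 to 0.670% in V2 and 0.592 to 0.693% in V3). In V2 WT mice it was highest in tissue-like activated Tconv (0.424 to 0.473%) and lowest in the resting Irf7 cluster (0.341 to 0.368%). In WT cells of the chimeras follicular helper T cells (Tfh) stood highest (0.435 to 0.506%).

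Hif1a was highest in Tfh in V2 WT (105 to 200.5 CPM), in V3 ∆Foxp3 (383 to 665) and in WT cells of the chimeras (211 to 598), and in activated Treg in V2 ∆Foxp3 (175 to 210.3). Pdk1 was highest in the resting Irf7 cluster in all 4 of these groups, from 69.98 to 71.2 CPM in V3 ∆Foxp3 to 112 to 205 in chimera WT cells. Slc2a3 was highest in activated and resting Treg in V2 WT (8.69 to 73.3 and 31.2 to 41.6 CPM) and in chimera WT cells (44.7 to 72.6 and 28.4 to 47.4). In V2 ∆Foxp3 mice activated Treg were the lowest of 11 clusters in Slc2a3 (3.97 to 9.06 CPM). Activated Treg held 17 Slc2a3 UMIs over all V2 samples, so their V2 ranks rest on few UMIs. Eno3 was highest in resting Treg in V2 WT (67.8 to 71.02) and chimera WT cells (20.5 to 52.1), and Pfkp in Th1 cells in both (152 to 173 and 82.5 to 140.5). The clusters were drawn from these cells, and the ranks are a description.

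**Figure D4:**
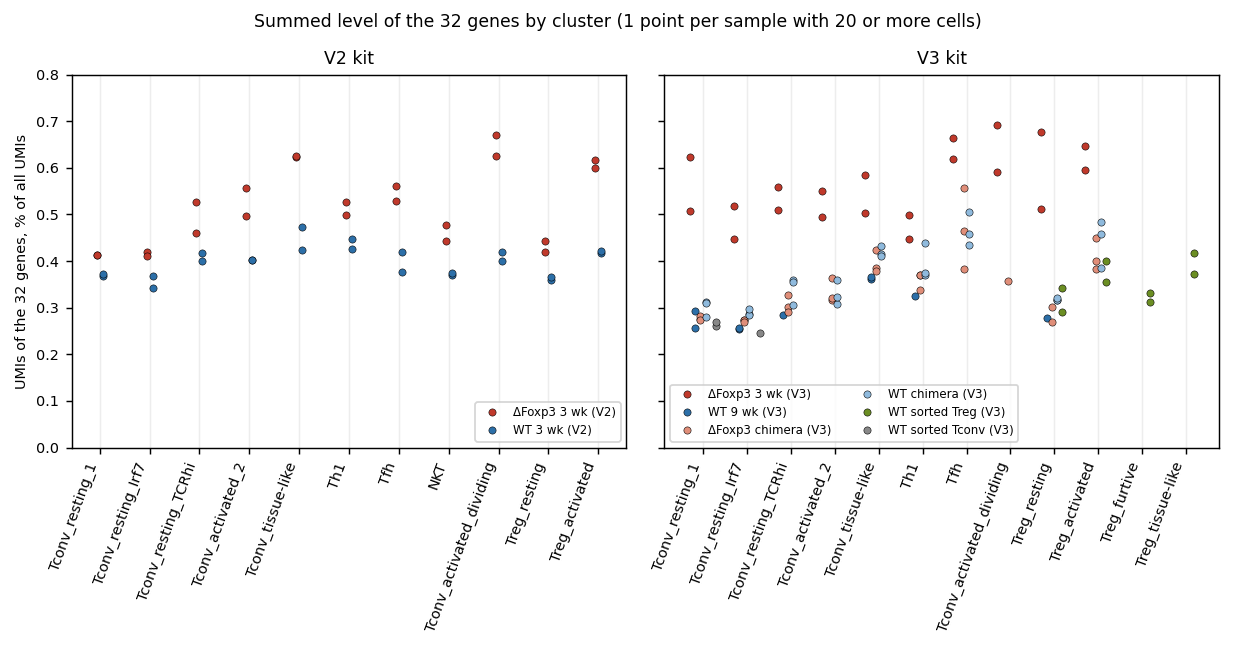
Share of UMIs from the 32 genes (vertical axis, percent) by cluster (horizontal axis) for each sample with 20 or more cells (points, coloured by group), V2 and V3 kits apart. In the main resting cluster V3 ∆Foxp3 samples lie at 0.506% and 0.624% against 0.256% and 0.294% in V3 WT; chimera samples of both genotypes lie at 0.274% to 0.312%.

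Within isoform families, shares of UMIs are given per sample; they compare samples and not the amounts of 2 proteins. Hk2 made up 6.28% and 7.84% of Hk1 and Hk2 UMIs in V3 ∆Foxp3 and 1.47% and 0.917% in V3 WT samples, but 1.17% and 0.980% against 1.53% and 1.27% in V2. Sorted Treg held 5.71% and 5.95% and sorted Tconv 1.54% and 0%, the last from 0 of 41 UMIs (exact Clopper-Pearson 95% upper bound 8.604%, counting error only). Pfkp made up 74.8% and 69.7% of phosphofructokinase UMIs in V2 ∆Foxp3 against 63.9% and 61.5% in V2 WT, and 79.98% and 79.6% against 64.97% and 68.7% in V3. The shift to Pfkp was thus seen in both kits without overlap. In the chimeras the ∆Foxp3 cells lay below, at 61.8%, 63.9% and 63.6% against 68.8%, 65.1% and 67.7% (exact unpaired permutation p = 0.1, two-sided). That test does not use the pairing of the chimera samples by mouse.

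Ldha made up 94.999% and 95.8% of lactate dehydrogenase UMIs in V3 ∆Foxp3 and 92.2% and 93.2% in V3 WT, 91.6% and 92.9% against 92.8% and 92.8% in V2, and 85.1% and 88.9% in sorted Treg against 91.6% and 95.3% in sorted Tconv. Sorted Treg thus had a larger share of Ldhb UMIs than sorted Tconv in both replicates. Slc2a3 made up 74.6% and 78.4% of Slc2a1 and Slc2a3 UMIs in sorted Treg and 36.000% and 50.000% in Tconv. In mice of both kits this share overlapped between genotypes over all cells, and leaving out 1 sample could turn its sign. Within resting Tconv it was 45.3% to 50.7% in V3 ∆Foxp3 and 31.7% to 33.3% in V3 WT, and it overlapped in V2. In the Treg class it was lower in ∆Foxp3, at 28.6% to 50% against 68.2% to 80% in V2. In V3 Treg it was 56.25% to 60.7% against 66.7% to 81.25%. The Treg shares rest on few UMIs, and the difference between classes was not tested. With 2 samples against 2 an exact unpaired permutation test cannot go below p = 0.333 and with 3 against 3 not below 0.1. Over the 16 tests the smallest Benjamini-Hochberg value was 0.485, so none passed.

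**Figure D5:**
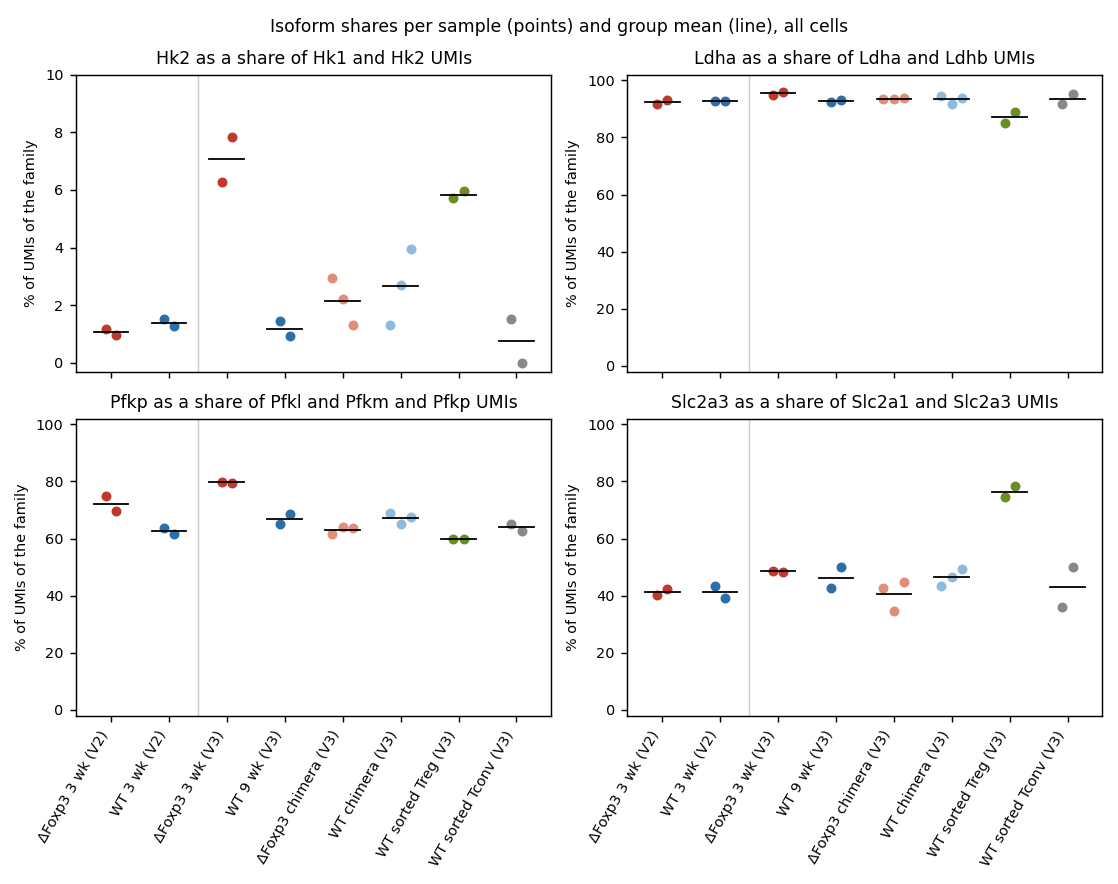
Share of the UMIs of each isoform family (vertical axes, percent) that came from Hk2, Ldha, Pfkp or Slc2a3 in each sample (points) with group means (lines), over all cells. Hk2 is highest in V3 ∆Foxp3 (6.28% and 7.84%) and sorted Treg samples, Pfkp is above WT in ∆Foxp3 mice of both kits, and Slc2a3 is highest in sorted Treg (74.6% and 78.4%).

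Of the other glucose metabolism genes 4 of 26 rose in V2 and 7 of 27 rose and 2 fell in V3, with median log2 fold changes of -0.00 and 0.06. Those counts, and those of the 4 lists that follow, stand beside 14.4% of all genes that rose and 9.61% that fell in V2, and 22.1% and 20.9% in V3. Read against these shares, the other glucose metabolism genes lay near or below the background. Among them Arrdc4, an inhibitor of glucose uptake, rose by a log2 of 3.61 and 3.37, and Slc2a8 (GLUT8) by 0.999 and 1.66. In V3 Mpc1, a subunit of the mitochondrial pyruvate carrier, rose by 0.60. Of 8 pentose phosphate genes 1 rose in each kit (medians 0.07 and 0.16), in V2 Pgls and in V3 G6pdx, the entry enzyme of that branch (1.02). Of 17 citric acid cycle genes 3 rose in V2 and 6 rose and 3 fell in V3, with medians of 0.08 and 0.16. In V3 the succinate dehydrogenase subunits Sdhb and Sdhd rose (0.64 and 0.75) and the mitochondrial isocitrate dehydrogenase Idh2 fell (-0.93). The subunits did not all move together: in V3 mice minus chimeras the subunit Sdha had -0.42, against 0.68 for Sdhb and 0.80 for Sdhd.

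Of 15 other hypoxia response genes 3 rose and 2 fell in V2, and 8 rose and 2 fell in V3 (medians -0.03 and 0.25), beside 24.0% of all genes called in V2 and 43.0% in V3. Ddit4, an inhibitor of mTORC1, rose in both (0.58 and 1.42), and Egln3, a prolyl hydroxylase that marks HIF-1α for decay, in both as well (2.16 and 1.62). P4ha1, a collagen prolyl hydroxylase subunit, fell in both (-0.60 and -1.22), and Epas1 (HIF-2α) rose in both (1.24 and 2.29). Of 19 genes of mTORC1, Myc and amino acid uptake 2 rose and 2 fell in V2, and 4 rose and 5 fell in V3 (medians -0.04 and -0.07), near those shares. Batf, an activation-induced transcription factor, rose in both (1.22 and 1.84) and the amino acid transporter Slc38a2 fell in both (-0.80 and -0.46). Myc, the other driver of glycolysis genes, fell in V3 (-1.26, edgeR adjusted p = 2.19e-06). In the chimeras 0 genes of these 5 lists passed edgeR's test. In sorted Treg against Tconv, Tkt and G6pdx of the pentose branch were higher (log2 0.74 and 1.64) and Idh2 lower (-1.30).

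At least 1 match to the hypoxia response core stood in the first listed window of 11 of the 16 genes with a window that rose in V3, in 3 of 3 that fell, in 7 of 9 that did not pass and in 3 of 3 that were not tested. Pdk1, which fell, holds it once, and Ldhb, which did not pass in V3, holds it once, while Ldha holds it 5 times.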

How the data were processed

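Splenic CD4+ T cells were profiled by droplet single-cell RNA sequencing with 10x Genomics 3′ kits. The authors deposited 1 table of whole UMI counts per gene and cell, made with Cell Ranger 3.0.2 and the mm10 build per the submitters' processing notes. Per the file headers, the authors also deposited the sample, 10x channel, class and cluster of each cell, its percentage of mitochondrial UMIs and, for V2 libraries, the fraction of reads in cells. Doublets were scored by the authors per the file headers, and no further doublet or cell filter was applied here. The cell table names the V3 kit for every cell, and the kit was taken from the sample labels. No barcode was shared within a channel (0), and 99 barcode sequences occurred in more than 1 channel. Of the 59 columns of the cell table, 50 were not used.

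UMIs were summed per sample over all cells and per class, leaving out samples with under 20 cells of a class. The sums were tested with edgeR 4.0.16 (R 4.3.3, limma 3.58.1), after filterByExpr (minimum count 10) and TMM scaling, by the quasi-likelihood F test and Benjamini-Hochberg adjustment over all genes at 0.05. V2 and V3 samples were fitted apart, the V3 fit over all 14 samples sharing 1 estimate of spread, and the V3 class fits over the 4 groups of mice and chimeras (10 samples). Isoform shares were compared by two-sided exact permutation tests of unpaired samples (scipy 1.17.1). Other values were computed with Python 3.11.15, numpy 2.4.6, pandas 2.3.3 and matplotlib 3.10.9. Counts were simulated for the designs over all cells and in resting Tconv, with 200 genes changed 2-fold in each. Every simulated gene was given the same spread between samples, and only genes above a minimum mean count were changed. The tests recovered 51.0% (sorted Treg against Tconv) to 96.5% (chimera resting Tconv) of them, with 2 to 12 false calls. Genes with a larger spread or lower counts are not covered, so these shares do not measure what the chimera tests could find for them. Recovery of smaller changes, and recovery in the fits within activated Tconv and Treg, was not tested. Recovery is not given by the level or spread of a gene, so these shares do not carry over to single genes.

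The 32 genes and the 18 gene lists beside them were chosen with earlier results of these data known. Genes given by sample are the isoform families, the 6 called genes with the lowest p in each comparison over all cells, up to 4 more in a class, and up to 3 called genes of each other list; genes named beyond these were chosen after their values were seen. Alternatives were RLE scaling, no filter on low counts, DESeq2 1.42.0, a block for the replicate number, each sample left out, and cells of dividing clusters or with 2 or more markers of other cell types left out. Added after seeing the data were a term for the 10x channel, a cut at 4 markers, and the NKT cluster left out.

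Replicate numbers pair the chimera samples, since a number marks 1 mouse by its hashtag; deviations from the group means correlated at 0.080, -0.031 and 0.055 in mice 1 to 3. In the V3 mice and the sorted samples a number marks 1 10x channel, with correlations of 0.308 and 0.241. Promoter sequences were taken from RefSeq tables of GRCm38.p6 and checked against GENCODE exons.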

Additional observations from a re-analysis of the deposited data

Results flagged for a closer look

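For 19 of the 32 genes the genotype difference in V3 mice differed from that in the chimeras by edgeR's test of the difference of differences (adjusted over all genes at 0.05, where 36.8% of all genes passed). In the values below, the log2 difference between ∆Foxp3 and WT in chimeras is subtracted from that in the mice, and age, host and donor strain differ between the settings beside Treg sufficiency, so these cannot be told apart.

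Among genes of uptake and early glycolysis the value was 0.72 for Slc2a1, 1.21 for Slc2a3, 3.19 for Hk2, 0.34 for Gpi1 and 1.12 for Pfkp. Hk2 rests on few UMIs. Among the later enzymes it was 1.74 for Tpi1, 1.57 for Gapdh, 1.09 for Pgk1, 0.81 for Pgam1, 0.53 for Eno1 and 0.68 for Pkm. For the lactate genes it was 0.47 for Ldha and 3.91 for Slc16a3, which was higher in ∆Foxp3 mice and lower, without passing, in ∆Foxp3 cells of the chimeras.

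The 3 negative values were -2.18 for Pdk1, -0.40 for Pdha1 and -1.38 for Bnip3, while Pdk3 stood at 1.11. Hif1a had 1.83 and Mif 0.34. Without cells with 2 or more markers of other types, 9 genes passed.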

How the results depend on the processing

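Of 1881 values of single genes under an alternative, 1 reversed, the difference of differences of Mif without cells with 2 or more markers of other types (-0.16). That cut, which drops many cells, left 11 calls of 20 in V3 mice, 3 of 6 in sorted Treg against Tconv and 9 of 19 for the difference of differences. DESeq2 called 6 of the genes in V2 against 11. Without a filter on low counts 2 genes passed in the chimeras against 0. Leaving out 1 sample gave 0 to 15 calls in V2 mice, 14 to 21 in V3 mice, 0 to 2 in the chimeras, 3 to 5 in the sorted samples and 12 to 20 for the difference of differences. Within classes it gave 0 to 10 in V2 resting, 5 to 10 in V2 activated, 2 to 4 in V3 activated, 0 to 1 in chimera activated Tconv, 6 to 10 in V2 Treg and 5 to 8 in V3 Treg. Where an arm was left with 1 sample, it was assumed to vary like the other groups.

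With the replicate block, calls numbered 12 in V2 and 20 in V3 mice, 0 in the chimeras, 9 in the sorted samples, 11 (against 4) in V3 activated Tconv and 7 in V3 Treg. V2 samples share only a number (correlation 0.080); there the block dropped Ldha and added Ldhb and Pdk1 over all cells, dropped Pfkl and added Pfkp, Pgam1 and Pdk3 in resting Tconv, and added Ldhb in activated Tconv. In the chimeras it changed no call. Shares of all genes passing under the alternatives are not given here.

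Isoform shares with small differences turned with 1 sample or in resting cells (percentage points, ∆Foxp3 minus WT). In resting cells only, Slc2a3 was at -2.62 in V2 and 0.919 in the chimeras, and in V3, where it did not turn, at 15.5. Leaving out 1 sample, Hk2 ran from -1.18 to 0.140 in the chimeras, Ldha from -1.18 to 0.161 in V2 and from -0.718 to 0.638 in the chimeras, and Slc2a3 from -2.23 to 2.24 in V2 and from -1.43 to 5.93 in V3. Depth limits Hk2, Slc2a6 and Hk3, which rest on few UMIs, and also Slc2a3 and Eno3 within Treg of V2 ∆Foxp3 mice. The causes of these changes were not tested.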
